A study of Oryza sativa with 12 samples.

Results

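Expression of 10 rice genes of starch breakdown was described in culms of 4 genotypes: 5 beta-amylase loci, the alpha-amylases RAmy1A, RAmy2A, RAmy3D and RAmy3E, and the glucan dikinase GWD1. They were taken by locus identifier from the 55986 genes of the deposited table, and all 10 were present. The material was culm of the japonica cultivar Zhonghua 11 at heading, with 3 libraries each for a line labelled as knocked out in TAC4L and TAC4 together (double-KO here), a TAC4-KO line, a TAC4L-KO line and wild type (WT). The series concerns brittle culms of the double mutant. Sample titles say knockout, whereas the genotype field says knockdown. The number of independent lines behind each label is not given in the sources used here, and nothing states that replicates were separate plants. The spread that p-values are set against is therefore that of these libraries alone and may be technical.

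Starch in plastids is opened at the granule surface by glucan, water dikinase (GWD), which adds phosphate to the glucan chains. Beta-amylases then release maltose from chain ends, and debranching enzymes, disproportionating enzymes and phosphorylases process the remaining glucans. Alpha-amylases cut inside the chains and are best known in rice from the germinating grain, where gibberellin and sugar starvation induce them. Rice stems store starch before heading and draw on it later to fill the grain.

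The values were FPKM, fragment counts adjusted for gene length and library size. Relative depth, read from the steps between low values, spanned 2.58-fold, and WT replicate 1 was shallowest at 38.8% of double-KO replicate 2. No pair of libraries was identical among 66 compared. TAC4 stood at 13.2 to 16.5 FPKM in the libraries labelled double-KO, 9.13 to 13.5 FPKM in TAC4-KO, 8.22 to 9.83 FPKM in TAC4L-KO and 4.75 to 7.32 in WT, so its transcript was higher, not lower, where the label says it was lost. TAC4L stayed at 0.282 to 0.883 FPKM in all 12 libraries. Whole-gene FPKM cannot show an edit in a transcript that is still made, so groups are named by their labels, and every direction below is that of the libraries so labelled. On the first principal component of the tested genes (52.8% of the variance), TAC4L-KO replicate 3 (5.76) and TAC4-KO replicate 2 (9.91) lay next to each other, apart from their own replicates (-51.5 and -36 in TAC4L-KO, 30.5 and 45.9 in TAC4-KO). Where leaving out either library changed a call of the 10 genes between genotypes, both values are given. For the departure of GWD1 from the sum of the single changes, a range over the alternatives is given instead.

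Starch breakdown genes did not move as a block in the libraries labelled double-KO. GWD1 and the beta-amylase LOC_Os09g39570 rose against WT, while the beta-amylases LOC_Os10g41550 and LOC_Os03g04770 and the alpha-amylases RAmy2A and RAmy3D fell. The tests used limma on log2(FPKM + 1) across the 19184 genes whose mean over the 12 libraries reached 1 FPKM, and a gene was called at a Benjamini-Hochberg adjusted p under 0.05. Of the 10 genes, 7 passed that filter, 2 were called higher and 4 lower, and LOC_Os10g32810 was not called. Over all tested genes 47.4% were called in this comparison (20.1% higher and 27.3% lower), so calls were common throughout. The median log2 change was -2.07 for the 7 genes and -0.1 for all tested genes. How all calls divided depended on scaling, with 57.6% of them lower in the deposited values, 50.8% after median-of-ratios scaling and 44.4% after quantile normalization. The median log2 change of all genes moved to -0.01 under the first of these scalings and to 0.08 under quantile normalization. The 6 calls kept their direction and threshold under both scalings.

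**Figure D1:**
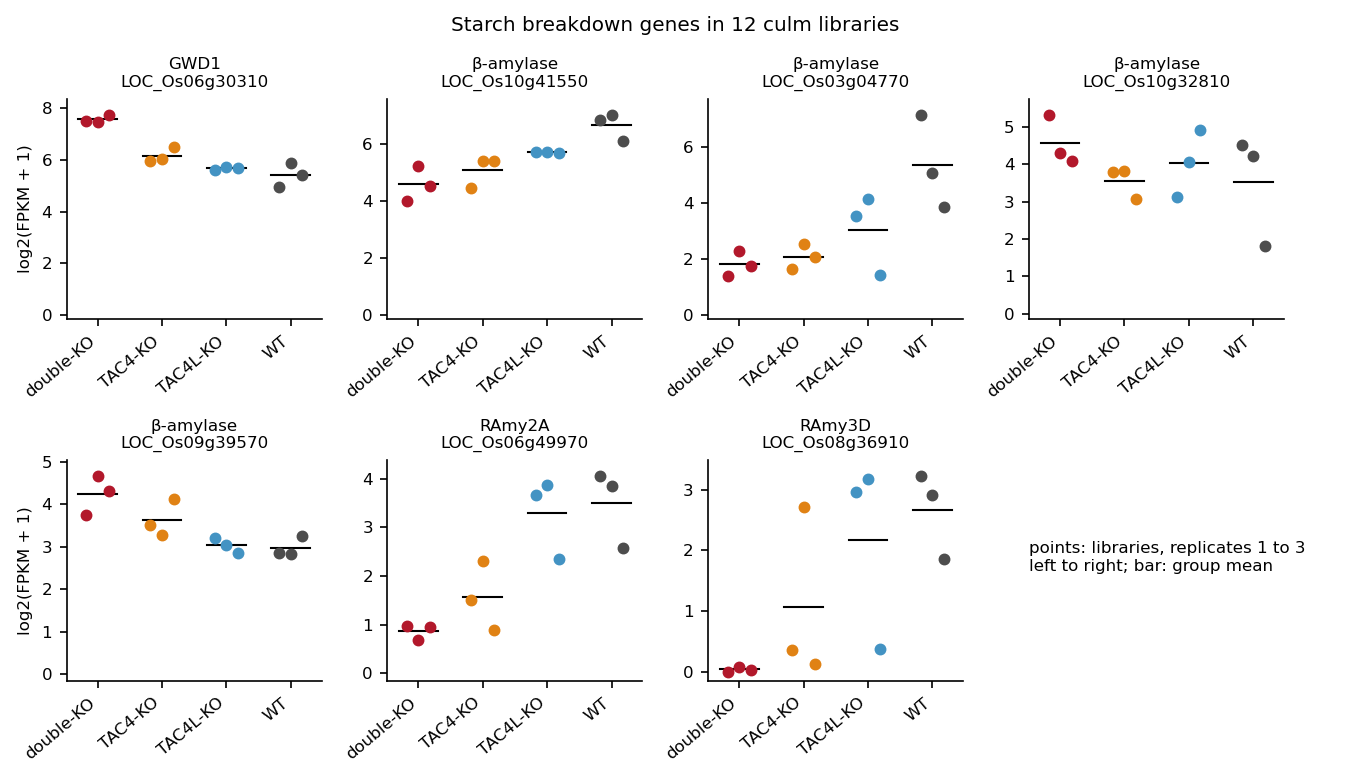
Each panel shows 1 gene on a log2(FPKM + 1) axis, with a point for each of the 3 libraries per genotype and a bar at the group mean. GWD1 is highest in double-KO (174 to 211 FPKM), whereas LOC_Os10g41550 is highest in WT (67.6 to 129 FPKM), and RAmy3D is near 0 in all 3 double-KO libraries.

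GWD1 (LOC_Os06g30310), the dikinase that starts starch breakdown, had 179, 174 and 211 FPKM in libraries labelled double-KO, 60.8, 64.5 and 89.6 in TAC4-KO, 47.1, 52.1 and 50.4 in the TAC4L-KO line, and 30.1, 58 and 41.9 in WT. The 3 double-KO libraries stood above all 9 others, and the TAC4-KO libraries stood above those of TAC4L-KO and WT. The mean was 188 ± 19.9 FPKM in double-KO against 43.3 ± 14 FPKM in WT (SD, n = 3 each), a ratio of means of 4.34. On the log2(FPKM + 1) scale the change was 2.14 (SE 0.23, limma adjusted p = 4.5e-05), and it ranged from 1.9 to 2.37 over 13 alternative settings. GWD1 was also higher in double-KO than in TAC4-KO (log2 1.4, SE 0.23, limma adjusted p = 0.0026) and than in TAC4L-KO (1.89, SE 0.23, limma adjusted p = 0.00019). An exact two-sided permutation test of 3 libraries against 3 cannot go below p = 0.1, and it gave 0.1 for each of these 3 comparisons.

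In TAC4-KO, GWD1 averaged 71.6 ± 15.7 FPKM, against 43.3 ± 14 FPKM in WT (SD, n = 3 each). The log2 change was 0.74 (SE 0.23, limma adjusted p = 0.027). The call was lost without TAC4-KO replicate 3 (0.57, adjusted p = 0.11), WT replicate 1 (0.51, adjusted p = 0.085) or WT replicate 3 (0.74, adjusted p = 0.056), and with only these groups in the limma fit (adjusted p = 0.088). In TAC4L-KO the level was 49.9 ± 2.51 FPKM (SD, n = 3), with a log2 change from WT of 0.25 (95% interval -0.25 to 0.75). The order of GWD1 levels was therefore double-KO, TAC4-KO, TAC4L-KO and WT, of which only the first neighbours differed by the test. GWD1 also departed from the sum of the single changes: the interaction, the double-KO change from WT less both single-line changes, was 1.15 (SE 0.32, limma adjusted p = 0.035), where 15.1% of all tested genes were called, 4.11% with a positive value and 11% with a negative one. That call was lost in 12 of 19 alternatives, including 10 of the 12 that left out 1 library (all but TAC4-KO replicate 3 and WT replicate 1), with log2 values of 0.92 to 1.42 over all 19.

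Of the 5 beta-amylase loci, LOC_Os10g41550 was the most abundant, with a mean of 53.6 FPKM over the 12 libraries. It had 15, 36.7 and 21.9 FPKM in double-KO, 20.9, 41.7 and 41.2 in TAC4-KO, 51.7, 52.2 and 50.3 in the TAC4L-KO line, and 114, 129 and 67.6 in WT. No library of any mutant line reached the lowest WT library. In double-KO it averaged 24.5 ± 11.1 FPKM, against 104 ± 32.1 FPKM in WT (SD, n = 3 each), and WT was 4.23-fold higher by the ratio of means. The log2 change was -2.07 (SE 0.35, limma adjusted p = 0.00065) in double-KO and -1.57 (SE 0.35, limma adjusted p = 0.0059) in TAC4-KO. In TAC4L-KO the log2 difference from WT was -0.95 (95% interval -1.7 to -0.19) and did not pass (limma adjusted p = 0.1), although the groups did not overlap.

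LOC_Os03g04770, another beta-amylase, showed the widest spread of the 10 genes in WT. Its values were 1.63, 3.88 and 2.36 FPKM in double-KO, 2.14, 4.76 and 3.17 in TAC4-KO, 10.7, 16.7 and 1.69 in the TAC4L-KO line, and 140.3, 32.7 and 13.6 in WT. Every library labelled double-KO or TAC4-KO lay below every WT library, while TAC4L-KO overlapped WT, with TAC4L-KO replicate 3 at the level of the double-KO libraries. The log2 change was -3.55 (SE 0.78, limma adjusted p = 0.0032) in double-KO and -3.28 (SE 0.78, limma adjusted p = 0.0082) in TAC4-KO. Both calls held in every alternative run, but the WT libraries moved their size: without WT replicate 1, the shallowest library, the log2 changes were -2.66 in double-KO and -2.39 in TAC4-KO, and without WT replicate 3 they were -4.3 and -4.03. In TAC4L-KO the log2 difference was -2.32 (95% interval -4.02 to -0.62, limma adjusted p = 0.082), and -1.51 without TAC4L-KO replicate 3 (limma adjusted p = 0.28).

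The beta-amylase LOC_Os09g39570 went the other way. It had 12.4, 24.3 and 19 FPKM in double-KO, 10.5, 8.66 and 16.4 in TAC4-KO, 8.31, 7.26 and 6.25 in the TAC4L-KO line, and 6.22, 6.06 and 8.52 in WT. Double-KO libraries lay above all WT and TAC4L-KO libraries and overlapped TAC4-KO. Its mean was 18.6 ± 5.97 FPKM in double-KO against 6.93 ± 1.37 FPKM in WT (SD, n = 3 each), with a log2 change of 1.27 (SE 0.27, limma adjusted p = 0.0026). In TAC4-KO the log2 difference of 0.66 missed the threshold (95% interval 0.08 to 1.25, limma adjusted p = 0.074) and passed without TAC4-KO replicate 2 (0.85, limma adjusted p = 0.046).

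LOC_Os10g32810 showed no called difference in any of the 7 comparisons. It had 39.1, 18.9 and 16 FPKM in double-KO, 12.9, 13.1 and 7.35 in TAC4-KO, 7.74, 15.8 and 29.5 in the TAC4L-KO line, and 22.1, 17.5 and 2.5 in WT. Double-KO libraries lay above those of TAC4-KO and overlapped TAC4L-KO and WT, and WT replicate 3 was the lowest of the 12. The log2 difference between double-KO and WT was 1.06 (95% interval -0.37 to 2.49), and 0.21 without WT replicate 3. The fifth beta-amylase locus, LOC_Os07g35880, was listed at 0 in 3 of 3 TAC4L-KO and 3 of 3 WT libraries, at 0.0719, 0.0989 and 0 FPKM in double-KO and at 0.0972, 0 and 0.0257 FPKM in TAC4-KO, too low to test.

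Of the alpha-amylases, only RAmy2A and RAmy3D passed the filter. RAmy2A (LOC_Os06g49970) had 0.964, 0.619 and 0.929 FPKM in double-KO, 1.84, 3.98 and 0.851 in TAC4-KO, 11.7, 13.6 and 4.12 in the TAC4L-KO line, and 15.6, 13.5 and 4.97 in WT. Libraries labelled double-KO or TAC4-KO all lay below the lowest TAC4L-KO and WT libraries. It averaged 0.837 ± 0.19 FPKM in double-KO against 11.4 ± 5.64 FPKM in WT (SD, n = 3 each), and WT was 13.6-fold higher. The log2 change was -2.63 (SE 0.48, limma adjusted p = 0.0011) in double-KO and -1.93 (SE 0.48, limma adjusted p = 0.0099) in TAC4-KO, while the log2 difference in TAC4L-KO was -0.2 (95% interval -1.24 to 0.84), and 0.27 without TAC4L-KO replicate 3.

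RAmy3D (LOC_Os08g36910), an alpha-amylase gene known to be induced by sugar starvation, was nearly silent in the libraries labelled double-KO. It had 0, 0.0555 and 0.0226 FPKM there, 0.286, 5.53 and 0.0972 in TAC4-KO, 6.77, 8.05 and 0.296 in the TAC4L-KO line, and 8.35, 6.51 and 2.63 in WT. Values within both single lines were split: TAC4-KO replicate 2 had a level within the WT range and TAC4L-KO replicate 3 had a level near 0, and these are the libraries that lay apart from their own replicates on the first principal component. In double-KO the log2 change was -2.63 (SE 0.76, limma adjusted p = 0.014), lost without WT replicate 1 (-2.35, limma adjusted p = 0.051). With a pseudocount of 0.1 in place of 1 the change was -5.43. In TAC4-KO the log2 difference was -1.6 (limma adjusted p = 0.12), and -2.42 without TAC4-KO replicate 2 (limma adjusted p = 0.023). In TAC4L-KO it was -0.49, and 0.4 without TAC4L-KO replicate 3, neither called.

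**Figure D2:**
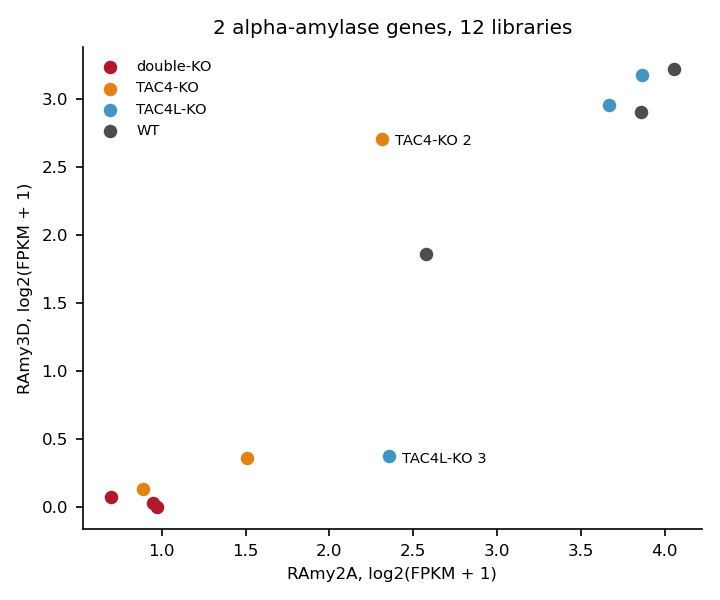
RAmy3D (vertical) is plotted against RAmy2A (horizontal), both as log2(FPKM + 1), with 1 point per library coloured by genotype. TAC4-KO replicate 2 and TAC4L-KO replicate 3 are named, and the 3 double-KO libraries sit at the lower left beside the other 2 TAC4-KO libraries, with RAmy3D at 0 to 0.0555 FPKM in double-KO.

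RAmy1A (LOC_Os02g52710), the main gibberellin-induced alpha-amylase of the grain's aleurone layer, was listed at 0 in all 12 libraries. RAmy3E (LOC_Os08g36900) was listed at 0 in 11 libraries and at 0.0554 FPKM in WT replicate 1. RAmy3D and RAmy3E are neighbours on chromosome 8, with 0 protein-coding genes between them in the RefSeq annotation of ASM3414082v1. Alpha-amylase genes are alike in sequence, and how shared reads were assigned is not given in the sources used here, so the level of any 1 of them is uncertain to that extent.

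GWD1 held the larger share of the summed level in double-KO and beta-amylases the larger share in WT. Summed over the 10 genes, the level was 248, 259 and 271 FPKM in double-KO, 109, 142 and 159 in TAC4-KO, 144, 166 and 143 in the TAC4L-KO line, and 337, 263 and 142 in WT. GWD1 supplied 72.1%, 67.3% and 77.8% of it in double-KO, 55.6%, 45.4% and 56.5% in TAC4-KO, 32.7%, 31.4% and 35.4% in the TAC4L-KO line, and 8.94%, 22% and 29.6% in WT. The ranges of that share did not overlap between any of the genotypes. The share also depends on the other genes. GWD1 itself overlapped between TAC4L-KO (47.1 to 52.1 FPKM) and WT (30.1 to 58 FPKM). The beta-amylases among the 10 genes summed to 78.5 to 92 FPKM in TAC4L-KO and 92.1 to 283 FPKM in WT. Further beta-amylase loci are left out of these sums and shares. The most abundant of them, LOC_Os03g22790, averaged 21.2 FPKM in double-KO, 55.5 in TAC4-KO, 84.7 in TAC4L-KO and 155 in WT. Beta-amylases supplied 21.9% to 32.4% of the sum in double-KO, 42.5% to 48% in TAC4-KO, 54.5% to 61.5% in TAC4L-KO and 65.1% to 83.9% in WT. Alpha-amylases supplied 0.26% to 0.388% in double-KO, 0.597% to 6.69% in TAC4-KO, 3.1% to 13% in TAC4L-KO and 5.37% to 7.61% in WT. Of the beta-amylases among the 10 genes, LOC_Os10g41550 had the highest level in 10 of 12 libraries. The highest was LOC_Os10g32810 in double-KO replicate 1 and LOC_Os03g04770 in WT replicate 1. LOC_Os03g22790, outside the 10 genes, had a mean of 79 FPKM over the 12 libraries, against 53.6 FPKM for LOC_Os10g41550.

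**Figure D3:**
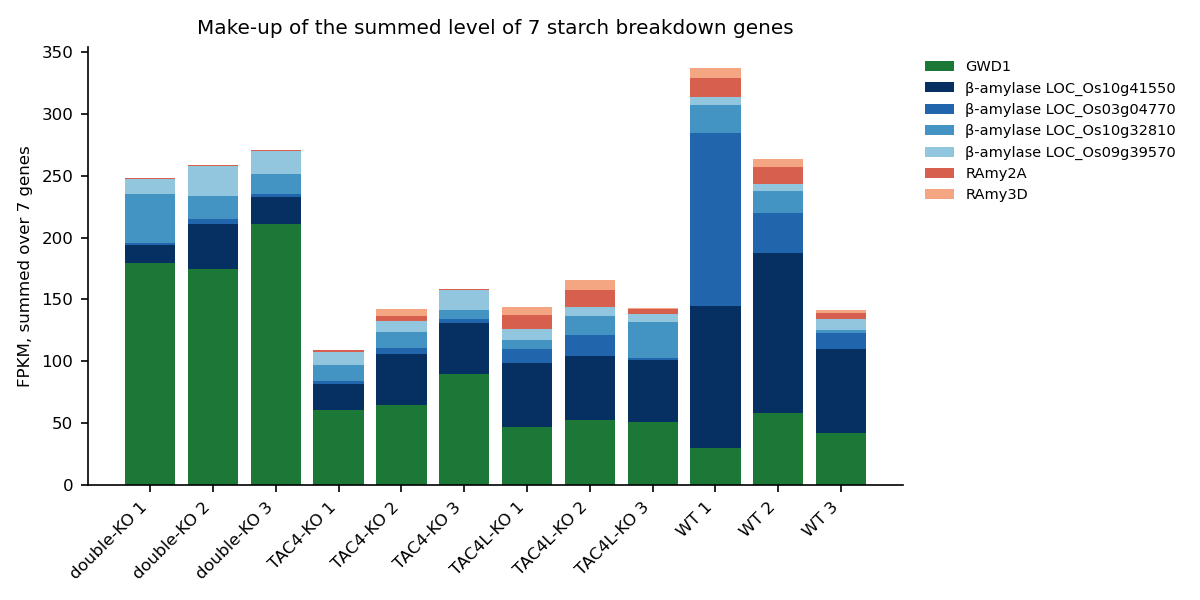
Bars give the FPKM of the 7 tested starch breakdown genes stacked for each of the 12 libraries, with double-KO on the left and WT on the right. GWD1 makes up most of each double-KO bar, and beta-amylases most of each WT bar.

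In TAC4-KO against WT, GWD1 was called higher and LOC_Os10g41550, LOC_Os03g04770 and RAmy2A lower, while 34.9% of all tested genes were called, 18.4% higher and 16.5% lower. The median log2 change was -1.57 for the 7 tested genes and 0.04 for all. Without TAC4-KO replicate 2 the count was 6, adding RAmy3D and LOC_Os09g39570. It was 3, with GWD1 lost, without TAC4-KO replicate 3, WT replicate 1 or WT replicate 3. In TAC4L-KO against WT, limma called 0 of the 7, with 2 at an unadjusted p under 0.05 (LOC_Os03g04770 and LOC_Os10g41550), while 7.18% of all tested genes were called, 3.68% higher and 3.5% lower. Median log2 changes there were -0.2 for the 7 genes and 0.1 for all. All 3 comparisons against WT share the same WT libraries.

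**Figure D4:**
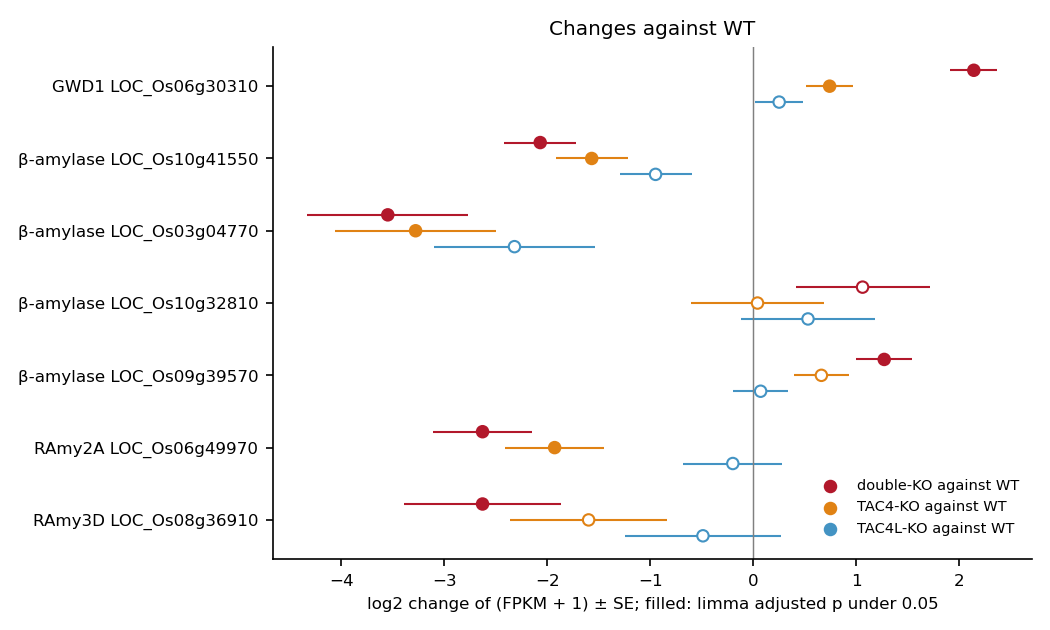
The log2 change of each tested gene against WT, with its SE, is shown for double-KO, TAC4-KO and TAC4L-KO, and filled points passed the test. Filled points number 6 for double-KO, 4 for TAC4-KO and 0 for TAC4L-KO.

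Between mutant lines, GWD1 was the only 1 of the 7 tested genes called in double-KO against TAC4-KO, where it was higher and 15% of all tested genes were called, 4.88% higher and 10.1% lower. Against TAC4L-KO, the libraries labelled double-KO had 2 genes higher (GWD1 and LOC_Os09g39570) and 3 lower (RAmy2A, RAmy3D and LOC_Os10g41550), beside 35% of all tested genes called, 11.6% higher and 23.4% lower. RAmy2A fell by 2.42 on the log2 scale there (SE 0.48, limma adjusted p = 0.0028). The calls of RAmy3D (-2.13, limma adjusted p = 0.048) and LOC_Os10g41550 (-1.13, limma adjusted p = 0.026) were both lost under median-of-ratios scaling, quantile normalization and no filter, and in 5 and 4 of the 6 fits that left out 1 library. Among those 6 fits, RAmy3D kept its call only without TAC4L-KO replicate 3 (-3.03, limma adjusted p = 0.0053), and LOC_Os10g41550 kept its call without double-KO replicate 2 (-1.45, limma adjusted p = 0.011) and without TAC4L-KO replicate 3 (-1.14, limma adjusted p = 0.0498). LOC_Os03g04770 was not called against TAC4L-KO (-1.23, 95% interval -2.93 to 0.47, limma adjusted p = 0.24) and was called lower without TAC4L-KO replicate 3 (-2.04, limma adjusted p = 0.0496). Without both TAC4L-KO replicate 3 and TAC4-KO replicate 2, neither LOC_Os10g41550 (-1.14, limma adjusted p = 0.055) nor LOC_Os03g04770 (-2.04, limma adjusted p = 0.057) was called. Limma called 0 of the 7 in TAC4-KO against TAC4L-KO, with 2 at an unadjusted p under 0.05, where 3.04% of all tested genes were called, 1.68% higher and 1.37% lower. Without both TAC4L-KO replicate 3 and TAC4-KO replicate 2, a setting chosen after seeing the data, RAmy2A (-2.57, limma adjusted p = 0.0075) and RAmy3D (-2.82, limma adjusted p = 0.0028) were lower in TAC4-KO than in TAC4L-KO. For RAmy2A, at -1.73 with all libraries (limma adjusted p = 0.073), the call was also made without TAC4-KO replicate 2 alone (-2.1, limma adjusted p = 0.044) and without TAC4L-KO replicate 3 alone (-2.2, limma adjusted p = 0.019).

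Counting tested genes whose 3 libraries all lay on the same side of those of the other genotype, 2 lay above WT and 4 below in double-KO, against 54.3% of all tested genes separated in this way (23.7% above and 30.6% below). In TAC4-KO, 2 lay above WT and 3 below, where 48.1% of all tested genes were separated (25.2% above and 22.9% below). In TAC4L-KO, 0 lay above WT and 1 below (LOC_Os10g41550), where 30.2% were separated (19.1% above and 11.1% below). In double-KO against TAC4-KO, GWD1 and LOC_Os10g32810 lay above and RAmy3D below, with 41.4% of all tested genes separated (14.7% above and 26.6% below). In double-KO against TAC4L-KO, 2 lay above and 3 below, with 52.4% separated (17.3% above and 35.1% below). In TAC4-KO against TAC4L-KO, GWD1 and LOC_Os09g39570 lay above and LOC_Os10g41550 and RAmy2A below, with 30.6% separated (11.6% above and 19% below). Separation alone was thus common among all genes.

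For 6 of the 7 genes, no pair of neighbours in the order of mean log2 levels differed by the test. Levels of LOC_Os10g41550, LOC_Os03g04770, RAmy2A and RAmy3D ran upward in the order double-KO, TAC4-KO, TAC4L-KO and WT. GWD1 and LOC_Os09g39570 ran downward in that same order. LOC_Os10g32810 followed neither order. Replicate spread was wide for several of these genes: the residual SD on the log2 scale was 1.14 for LOC_Os03g04770, 1.11 for RAmy3D and 0.96 for LOC_Os10g32810, and 99.3%, 99.2% and 98.2% of tested genes had a smaller one. GWD1, at 0.29, was at the median of all tested genes (0.29).

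The other steps of starch breakdown were described with 17 further loci, of which 11 passed the filter. In double-KO against WT, 8 were higher and 1 lower, with a median log2 change of 2.14 (-0.1 over all tested genes). Over all tested genes, 20.1% were called higher and 27.3% lower in this comparison. PHO2, the cytosolic glucan phosphorylase, averaged 128 ± 9.89 FPKM in double-KO against 8.56 ± 1.17 FPKM in WT (SD, n = 3 each; log2 3.76, SE 0.27, limma adjusted p = 6.7e-06). ISA3, a debranching enzyme of breakdown, averaged 31.2 ± 8.51 FPKM in double-KO against 2.6 ± 0.446 FPKM in WT (log2 3.14, SE 0.24, limma adjusted p = 8.2e-06). DPE1, the disproportionating enzyme of the plastid, rose by 2.14 on the log2 scale. The 1 gene that fell was a further beta-amylase, LOC_Os03g22790, at 21.2 ± 1.72 FPKM in double-KO against 155 ± 50.5 FPKM in WT (log2 -2.76, SE 0.28, limma adjusted p = 3.7e-05).

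Of the other 3 beta-amylase and dikinase genes tested, the beta-amylase LOC_Os01g13550 rose in double-KO (log2 0.79, limma adjusted p = 0.0023). PWD, the dikinase that acts on chains already phosphorylated by GWD, had 15.1 ± 4.69 FPKM in double-KO against 10.7 ± 2.74 FPKM in WT and was not called. The beta-amylase LOC_Os02g03690 had 2.94 ± 0.962 FPKM in double-KO against 3.72 ± 1.55 FPKM in WT (SD, n = 3 each) and was not called either. Untested loci were 2 beta-amylases and 4 alpha-amylases (RAmy1B, RAmy1C, RAmy3A and RAmy3B), each at a mean of 0.0176 FPKM or less over the 12 libraries. In TAC4-KO against WT, 7 of the 11 were higher and 1 lower, with a median log2 change of 1.12, where 18.4% of all tested genes were called higher and 16.5% lower. PHO2 (2.02), ISA3 (1.54), DPE1 (1.21) and PHO1, the plastid phosphorylase (2.16), were among those that rose, with limma adjusted p of 0.00065, 0.0011, 0.0019 and 0.002, and LOC_Os03g22790 again fell (-1.47, limma adjusted p = 0.003). In TAC4L-KO against WT limma called 0 of 11, with 2 at an unadjusted p under 0.05, where 7.18% of all tested genes were called.

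**Figure D5:**
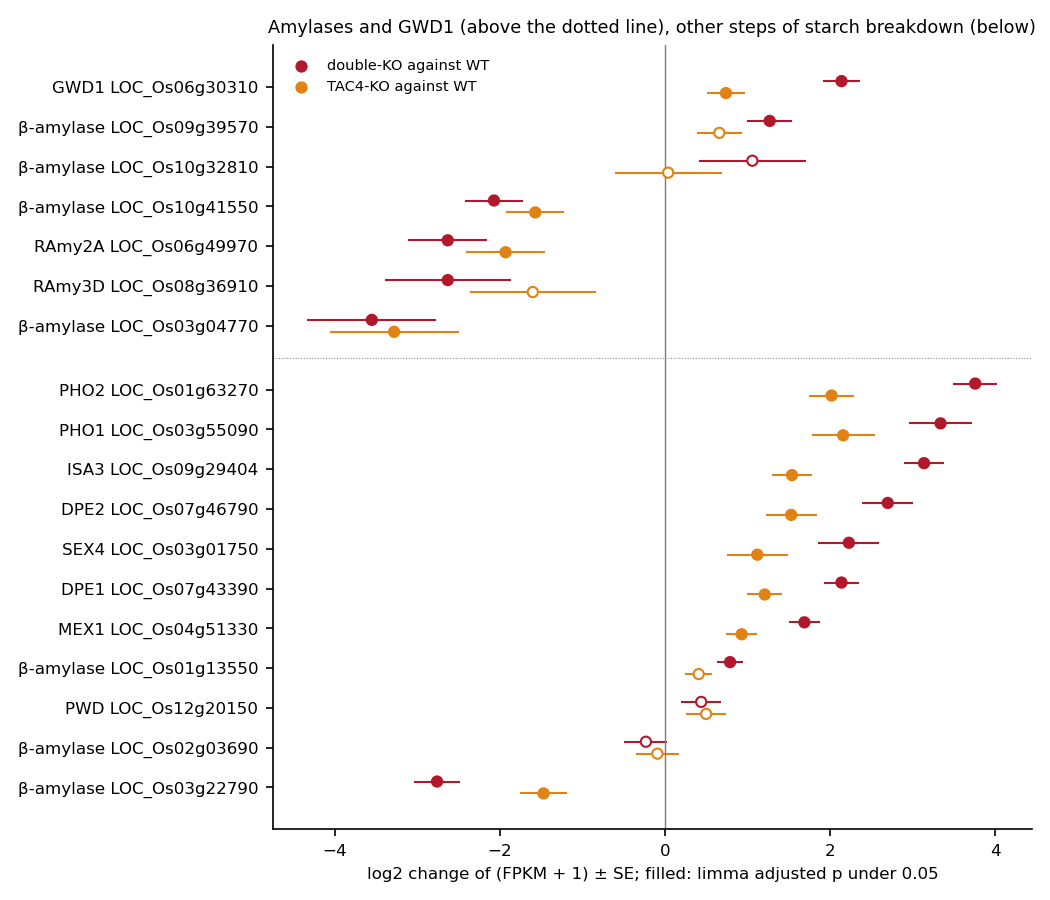
Log2 changes against WT with their SE are given for the 7 amylase and GWD1 genes (above the dotted line) and for 11 further starch breakdown genes (below it), in double-KO and TAC4-KO, with filled points past the test. Of the further genes, 8 rose and 1 fell in double-KO, and the gene that fell is a beta-amylase.

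Of 17 starch synthesis genes tested, listed for context, limma called 14 higher and 0 lower in double-KO against WT, where 20.1% of all tested genes were called higher and 27.3% lower. Their median log2 change was 2.41, against -0.1 for all tested genes. Fits of that comparison without 1 library called 10 to 15 of the 17 higher, and 1 lower without WT replicate 1. In TAC4-KO against WT, 10 were higher and 0 lower, where 18.4% of all tested genes were called higher and 16.5% lower, and the median was 1.17 against 0.04 for all. In TAC4L-KO limma called 0 of the 17, of which 5 had an unadjusted p under 0.05, where 7.18% of all tested genes were called. Over the 12 libraries GWD1 was most like ISA3 (Pearson r = 0.969) and the starch synthase SSIIIb (r = 0.967) among 34 starch genes compared on the log2 scale. LOC_Os10g41550 was most like the beta-amylases LOC_Os03g22790 (r = 0.885) and LOC_Os03g04770 (r = 0.843). RAmy2A was most like RAmy3D (r = 0.929) and LOC_Os03g22790 (r = 0.897). These coefficients span 4 genotypes of 3 libraries, so they carry the differences between genotypes.

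All 6 listed regulators of alpha-amylase genes were tested. SnRK1A, a kinase of the sugar starvation response, had 18.4 ± 4.57 FPKM in double-KO, 20.3 ± 6.19 FPKM in TAC4-KO, 15.7 ± 2.45 FPKM in TAC4L-KO and 9.36 ± 0.432 in WT (SD, n = 3 each). It rose in double-KO (log2 0.88, limma adjusted p = 0.01) and in TAC4-KO (1, limma adjusted p = 0.0081). Its TAC4L-KO libraries (13.2 to 18.1 FPKM) also lay above those of WT (9.02 to 9.84 FPKM), as did 19.1% of all tested genes, but it was not called. Limma called 0 of the 6 regulators in TAC4L-KO, with 2 at an unadjusted p under 0.05, where 7.18% of all tested genes were called. MYBS2, a factor that binds the sugar response element, rose in TAC4-KO (0.5, limma adjusted p = 0.0496), where each fit without 1 library called 1 regulator higher in place of 2. In double-KO against WT, 20.1% of all tested genes were called higher and 27.3% lower, and in TAC4-KO against WT 18.4% and 16.5%. With all libraries and the deposited values no other regulator was called against WT. However, 1 regulator was called lower in double-KO without double-KO replicate 1, double-KO replicate 2 or WT replicate 3, and 1 in TAC4-KO under median-of-ratios scaling, after quantile normalization and without WT replicate 3. GAMYB, the activator of the gibberellin response, had a log2 difference of -0.48 in double-KO (95% interval -0.9 to -0.07, limma adjusted p = 0.054). SLR1, another listed regulator, had a similar difference there, -0.44 (95% interval -0.86 to -0.02, limma adjusted p = 0.08). In TAC4-KO the differences were -0.49 for GAMYB and -0.25 for SLR1 (limma adjusted p = 0.064 and 0.32).

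Markers of other cells also differed between genotypes. In bulk RNA, fewer cells of a type and less RNA per cell cannot be told apart. The summed level of 7 green tissue genes was 9290 to 10900 FPKM in double-KO, 12800 to 15000 in TAC4-KO, 6910 to 7760 in TAC4L-KO and 4210 to 9080 in WT, and none of the 7 was at 0. Of them, 4 were higher and 1 lower in double-KO against WT, where 20.1% of all tested genes were called higher and 27.3% lower. In TAC4-KO, 6 were higher and 0 lower, where 18.4% were called higher and 16.5% lower. The gene that fell in double-KO was the Rubisco small subunit gene RbcS, at a mean of 2640 FPKM against 5400 FPKM in WT (log2 -0.99, limma adjusted p = 0.019). The summed level thus joined genes that moved in opposite directions. The 3 cellulose synthases of the secondary wall, which mark the strengthening tissue of the culm, summed to 38 to 92.7 FPKM in double-KO, 501 to 1370 in TAC4-KO, 1010 to 1660 in TAC4L-KO and 598 to 1040 in WT. All 3 were called lower in double-KO against WT, as were 27.3% of all tested genes. Limma called 0 of the 3 in TAC4-KO against WT, with 0 at an unadjusted p under 0.05, where 34.9% of all tested genes were called. The part of tissue make-up in the amylase and GWD1 results was not tested.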

How the data were processed

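RNA from 12 culm libraries was poly(A) selected, fragmented and primed with random hexamers, per the labels' protocols. The authors deposited FPKM values, 1 column per library. HISAT2 is named in the submitters' processing notes. Which quantifier, genome build, annotation and strand setting were used is not given in the sources used here, so overlapping antisense genes and near-identical copies remain uncertain, and no coordinates or sequences are given.

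All 12 libraries entered 1 limma fit (limma 3.58.1, R 4.3.3, trended prior, 8 residual degrees of freedom) on log2(FPKM + 1), which understates changes of low genes. Genes averaging 1 FPKM or more were tested, with Benjamini-Hochberg adjustment over all of them and calls at 0.05. The fit was checked on simulated data in which only a small part of the genes changed. That check could not show how the fit behaves with as many changes as were called here. Alternatives were a pseudocount of 0.1, no filter, a filter at 5 FPKM, median-of-ratios scaling, quantile normalization, only the groups compared, a replicate block and each library left out in turn. Absolute depth was not derived, so no detection floor is given. Relative depth came from the commonest ratio of values between 0.02 and 0.6 FPKM. It was halved for any library whose low values almost lacked odd multiples. It was then checked by whole multiples within 3% in 86.4% to 94.8% of the low genes examined.

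The 10 genes and the other lists were chosen with earlier results of these data known. All 10 genes are reported. From the other lists, at most 4 called genes per comparison, those with the smallest p, were to be named. LOC_Os01g13550, LOC_Os02g03690, PWD, GAMYB, SLR1 and, in TAC4-KO, LOC_Os03g22790 were added after their values were seen. Locus and name were paired from published rice nomenclature. RefSeq matched 0 of 65 identifiers, but 22 names were found on the chromosome the locus states, RAmy1A, RAmy2A, RAmy3D and RAmy3E among them, and GWD1 was not found.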

Additional observations from a re-analysis of the deposited data

Results flagged for a closer look

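GWD1 had an effect of the double line that differed from the sum of the single changes, by a test of that difference itself. The interaction was 1.15 on the log2(FPKM + 1) scale (SE 0.32, limma adjusted p = 0.035), and 12 of 19 alternative settings gave an adjusted p of 0.05 or more (range over all of them 0.012 to 0.11). Its change against WT was 2.14 in double-KO, 0.74 in TAC4-KO and 0.25 in TAC4L-KO. Its value was positive in all 19 alternatives.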

How the results depend on the processing

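The count of called genes among the 10 was 6 in double-KO against WT under every planned setting that kept all libraries except a filter at a mean of 5 FPKM, which leaves RAmy3D untested and gave 5, and it was 5 to 6 without 1 library. It was 3 to 6 in TAC4-KO against WT (4 in the reported fit), 0 in TAC4L-KO against WT and 1 for double-KO set against TAC4-KO when 1 library was left out. In double-KO against TAC4L-KO it was 5, and 3 with no filter, 3 under median-of-ratios scaling, 3 under quantile normalization, 3 to 6 without 1 library and 4 without both TAC4L-KO replicate 3 and TAC4-KO replicate 2. In TAC4-KO against TAC4L-KO it was 0, and 1 with the replicate block, 0 to 1 without 1 library and 2 without both of those libraries. For the interaction it was 1, and 0 with no filter, 0 to 1 without 1 library and 0 without both of those libraries. The cause of these shifts was not tested, beyond the fewer samples of some fits.

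Uncalled values changed sign in places. In TAC4L-KO against WT, LOC_Os09g39570 was -0.04 under median-of-ratios scaling and -0.02 to 0.2 without 1 library, LOC_Os10g32810 ran from -0.33 to 1.03, RAmy2A from -0.66 to 0.27 and RAmy3D from -1 to 0.4 without 1 library, and without both of the libraries above RAmy2A was 0.27 and RAmy3D 0.4. In TAC4-KO against WT, LOC_Os10g32810 was -0.81 to 0.55 without 1 library and -0.09 without both. For the interaction, LOC_Os10g32810 was -0.01 to 1.35 and RAmy3D -1.43 to 0.28 without 1 library.

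Over all genes, the calls in TAC4L-KO against WT numbered 1378, and 856 with no filter, 665 with the replicate block, 32 with only the groups compared and 135 to 2168 without 1 library. In TAC4-KO against TAC4L-KO they numbered 584, and 249 with no filter, 74 with only the groups compared and 38 to 1361 without 1 library. Leaving out 1 library also lowered the count to 4334, from 6693 with all, in TAC4-KO against WT, to 1441 from 2883 when double-KO was set against TAC4-KO, to 4017 from 6714 when it was set against TAC4L-KO, and to 1478 from 2894 for the interaction. Without both TAC4L-KO replicate 3 and TAC4-KO replicate 2, the counts were 107 in TAC4L-KO against WT, 1544 in TAC4-KO against TAC4L-KO and 1756 for the interaction. With the deposited values, median-of-ratios scaling and quantile normalization, in that order, the share of calls that were lower was 48.8%, 63.9% and 51.5% in TAC4L-KO against WT, 67.5%, 50.9% and 47.2% for double-KO set against TAC4-KO, 66.9%, 48.5% and 45.1% when set against TAC4L-KO, and, among interaction calls, 72.7%, 50.7% and 54.2%. Replicate numbers of the sample titles did not pair the libraries. Of 18 same-numbered pairs, 3 had deviations correlated above 0.1 (range -0.43 to 0.27), and 1 of 12 libraries was closest to its own number. Library names of the mutant lines carry other numbers than the titles, and a pairing by those was not tested. The replicate block added the call of RAmy2A in TAC4-KO against TAC4L-KO (-1.73, limma adjusted p = 0.036) and changed no other call among the 7 tested genes.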
